A study of Sus scrofa with 36 samples.

Results

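The genes described here are the phase I and phase II detoxification enzymes of the thyroid that share a few gene-name stems. A probe was a member when its gene name in the scanner files began with CYP and a digit, GSTA, GSTM, GSTO, GSTP, GSTT, GSTZ, UGT1, UGT2, SULT or ALDH, and when the scanner software scored it well above background in 5 or more pigs of any group of 6. Of 161 probes for 70 gene names that carried such a name, 107 probes for 53 genes were members, among 46222 probes tested and 60305 on the array. The members were 14 genes of the CYP1 to CYP3 families (25 probes), 5 CYP4 genes (7 probes), 12 genes of CYP5 and above (29 probes), 7 glutathione S-transferases (12 probes), 1 UGT2 gene (1 probe), 3 sulfotransferases (5 probes), 4 ALDH1 genes (6 probes), ALDH2 (11 probes) and 6 genes of ALDH4 and above (11 probes). No probe with a UGT1 name was analysed here.

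Thyroid RNA came from 36 castrated male pigs, 1 per array, in 6 groups of 6. The breeds were Creole (CR), a local breed of the Caribbean, Large White (LW), a commercial breed, and their cross (F1), and each breed had 6 pigs labelled 24 °C and 6 labelled 30 °C. The protocol attached to the labels instead states 32 °C, held for 5 days, for the hot condition, and group names here follow the label. All pigs were kept first at the lower temperature, and slaughter came before the warming for the 24 °C groups and after the hot days for the 30 °C groups. Temperature therefore cannot be told apart from slaughter time and age. A few litters stood for each breed, and family and breed cannot be told apart either. Pen, litter, sire, dam and slaughter series are not in the labels and were not used, so the p-values treat all pigs of a group as independent.

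Cytochromes P450 are haem enzymes that oxidise drugs, pollutants, fatty acids, sterols, retinoids and vitamin D. Glutathione S-transferases, UDP-glucuronosyltransferases and sulfotransferases then attach glutathione, glucuronic acid or sulfate, and aldehyde dehydrogenases oxidise reactive aldehydes to acids. The liver is the main site of most of these reactions, and in the thyroid field glucuronidation and sulfation are known as routes by which thyroid hormones are cleared.

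Signals are log2 intensities of 60-base probes, and the level of a probe can be set against the same probe in other pigs, not against another probe. Since several results turn on which probe was read, the probes behind them are printed as the scanner files give them. Both CYP4B1 probes, shown because they carry the heat difference, cover nearly the same stretch, and capitals mark the 56 bases they share.
CYP4B1 A_72_P392643: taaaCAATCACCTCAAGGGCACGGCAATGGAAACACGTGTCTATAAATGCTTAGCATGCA
CYP4B1 O1446: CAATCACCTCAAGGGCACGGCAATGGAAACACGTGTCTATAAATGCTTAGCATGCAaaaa
The GSTA4 probes, shown because both were called between breeds, share an unbroken run of 34 bases, in capitals. Many lower-case bases before that run also match. These probes correlated at r = 0.981 over the 36 arrays and are close to a single measurement.
GSTA4 A_72_P210752: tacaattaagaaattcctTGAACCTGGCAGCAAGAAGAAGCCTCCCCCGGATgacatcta
GSTA4 A_72_P605968: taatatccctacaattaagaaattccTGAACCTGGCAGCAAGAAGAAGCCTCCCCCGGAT
The pair of GSTT1 probes, O4053 and A_72_P284744, is a single sequence printed on the array under different names, and so is the pair CYP2A19 A_72_P441838 and CYP2A7 O9110. All of their bases are shared and in capitals.
GSTT1, both probes: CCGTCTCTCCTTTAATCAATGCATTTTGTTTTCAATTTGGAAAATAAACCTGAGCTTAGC
CYP2A19 A_72_P441838 and CYP2A7 O9110: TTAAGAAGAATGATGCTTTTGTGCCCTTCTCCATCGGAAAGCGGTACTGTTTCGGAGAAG
The other CYP2A19 probes needed below differed in outcome, and share no long stretch with that one.
CYP2A19 A_72_P172956: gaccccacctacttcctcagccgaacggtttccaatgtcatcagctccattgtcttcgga
CYP2A19 A_72_P035981: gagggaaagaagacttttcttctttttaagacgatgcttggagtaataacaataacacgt
The ALDH5A1 probes are shown because they read separate stretches and were all called between breeds.
ALDH5A1 A_72_P708975: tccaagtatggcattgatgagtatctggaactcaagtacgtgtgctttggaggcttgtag
ALDH5A1 O9346: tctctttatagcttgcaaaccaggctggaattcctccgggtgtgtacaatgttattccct
ALDH5A1 A_72_P506660: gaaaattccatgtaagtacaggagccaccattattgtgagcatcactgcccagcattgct
The probes with the largest breed differences in each direction among the CYP1 to CYP3 genes follow.
CYP1A2 A_72_P758583: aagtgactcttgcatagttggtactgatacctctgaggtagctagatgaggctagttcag
CYP2B22 A_72_P185176: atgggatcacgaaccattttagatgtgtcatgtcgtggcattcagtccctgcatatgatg
Capitals in the last pair mark 30 bases that the brightest CYP24A1 probe shares with a probe named for the integrin gene ITGB3.
CYP24A1 A_72_P763826: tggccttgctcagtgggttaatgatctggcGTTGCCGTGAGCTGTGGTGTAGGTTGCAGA
ITGB3 A_72_P762355: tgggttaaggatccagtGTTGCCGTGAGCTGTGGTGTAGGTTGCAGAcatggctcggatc

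Follicular cell markers were read from the 6 tested genes of their list. The mean log2 intensity was 18.80 for thyroglobulin (TG), 16.72 for the iodide transporter SLC5A5, 14.42 for the deiodinase IYD, 14.38 for the peroxide-generating oxidase DUOX2, 11.41 for the transcription factor PAX8 and 8.66 for the thyrotropin receptor TSHR. The well-above-background share of an array lay between 72.8% and 80.3%, and the 36 arrays lay on 5 slides, of which 4 held all 6 groups. Fewer cells of a type and less RNA per cell cannot be told apart in these bulk samples.

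The brightest member probe was a CYP24A1 probe, described below, and other bright member probes included those of conjugating enzymes and aldehyde dehydrogenases. GSTP1, the pi-class glutathione S-transferase, had a mean log2 intensity of 15.19 and ranged from 14.69 to 15.77 over the 36 pigs. SULT1A1, the phenol sulfotransferase, had a mean of 15.32 and a wider range, from 14.39 to 16.36. The current name list gives SULT1A1 as a synonym of SULT1A3, and the name of the scanner files is kept here. ALDH1A1, which makes retinoic acid from retinal, had a mean of 14.07, GSTO1, the omega-class transferase, 13.91, and ALDH9A1, an aminoaldehyde dehydrogenase, 13.79. The other ALDH1A1 probe, O9202, had means of 7.01 at 24 °C and 7.05 at 30 °C, so the ALDH1A1 level depends on the probe. At the low end the CYP11B2 probe O2254, the CYP2C33 probe A_72_P185221 and the GSTA2 probe A_72_P634937 only just met the detection rule, with 5 arrays in their best group and means of 5.47, 5.60 and 5.51, near background. Just outside it, with 4 arrays in the best group, were CYP17A1, CYP21A2, CYP2B22, CYP2C33 and CYP8B1 probes with means between 5.37 and 5.43.

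Of the 70 named genes, 17 had no detected probe. They include enzymes known best from the liver or steroid-making organs, namely CYP7A1 and CYP8B1 of bile acid synthesis, CYP2E1, CYP3A4 and CYP3A39 of drug metabolism, and CYP17A1, CYP19A2 and CYP19A3 of steroid synthesis. CYP1B1, CYP2U1, CYP27B1, GSTA1, UGT2B15, SULT1E1, ALDH1L2, ALDH4A1 and ALDH8A1 were the others. Their 27 probes, and 27 further probes of genes that had another, detected probe, were not tested. Of the 54 undetected probes, 19 were above background on no array and 19 on 1 array in their best group.

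The first comparison asked which of these genes differed between the pigs slaughtered after the hot days and those slaughtered before. Of the 107 member probes, 2 were called with limma at an adjusted p under 0.05, both lower at 30 °C and both reading CYP4B1. That is 1.87% of the member probes, against 1.18% of all 46222 tested probes (0.303% higher and 0.876% lower). At an unadjusted p under 0.05 there were 6 member probes, or 5.61%, against 9.74% of all probes. The median difference over the member probes was 0.01 on the log2 scale, as over all probes, and the median size of a difference was 0.05 in both. Outside CYP4 the families had 0 called probes with limma, and at an unadjusted p under 0.05 there were 2 probes in ALDH1, 2 in ALDH4 and above and 0 in CYP1 to CYP3, CYP5 and above, GST, UGT2, SULT and ALDH2.

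CYP4B1 is a fatty acid and xenobiotic hydroxylase of the CYP4 family, best known from lung. The name is the scanner files' own and matches no current RefSeq symbol, and the same holds for CYP11B2, CYP2A7, CYP2S1, CYP46A1, CYP7B1, GSTA2, GSTP1 and UGT2A2. In the 24 °C pigs the CYP4B1 probe A_72_P392643 had a lowest, median and highest log2 intensity of 7.31, 7.83 and 8.62 in CR, 7.14, 8.34 and 9.04 in F1 and 6.32, 7.50 and 8.31 in LW. In the 30 °C pigs the values were 6.88, 7.15 and 7.53 in CR, 6.17, 7.66 and 8.76 in F1 and 5.39, 6.45 and 7.21 in LW. The median was lower at 30 °C in each breed, the ranges overlapped in each, and LW pigs at 30 °C were lowest. Over the breeds the mean was 7.84 ± 0.71 (SD, n = 18) at 24 °C and 7.01 ± 0.80 (SD, n = 18) at 30 °C, a fall of −0.83 (SE 0.21, limma adjusted p = 0.0322). The second probe, O1446, fell by 0.86 (SE 0.21, limma adjusted p = 0.0221), from 7.79 ± 0.74 to 6.93 ± 0.76 (SD, n = 18 each). The probes are close to a single measurement, since they share 56 bases and correlated at r = 0.987 over the 36 arrays.

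With probe O1446 the CR pigs did not overlap, since their lowest value at 24 °C was 7.40 and their highest at 30 °C was 7.27. It was the sole member probe among the 107, in any of the 7 contrasts of the ranges examined, whose groups did not overlap. Among all tested probes the temperature groups did not overlap for 0.575%, 0.872% and 0.186% within CR, F1 and LW and for 0% over the breeds, and the breed groups did not for 0.279% between LW and CR, 0.0281% between F1 and CR and 0.0173% between F1 and LW. Of the 18 pigs at 30 °C, 16 lay below the 24 °C mean of probe A_72_P392643. Within CR, F1 and LW the difference was −0.70, −0.81 and −0.98, and none was called within its breed. It was negative on all 4 slides that held every group, between −0.60 and −1.18 for A_72_P392643 and between −0.72 and −0.99 for O1446. Probe A_72_P392643 was no longer called without each of 10 pigs in turn, with an adjusted p up to 0.0588: CR 24 °C replicate 1, CR 30 °C replicate 2, F1 24 °C replicates 4 and 5, F1 30 °C replicates 1 and 5, LW 24 °C replicates 4 and 5, and LW 30 °C replicates 2 and 4. Probe O1446 was called without each of the 36 pigs in turn, with an adjusted p up to 0.0421, and neither probe was called without the breed term (adjusted p = 0.106 and 0.0836). With the background-subtracted signal A_72_P392643 differed by −1.07 and was not called (adjusted p = 0.063).

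**Figure D1:**
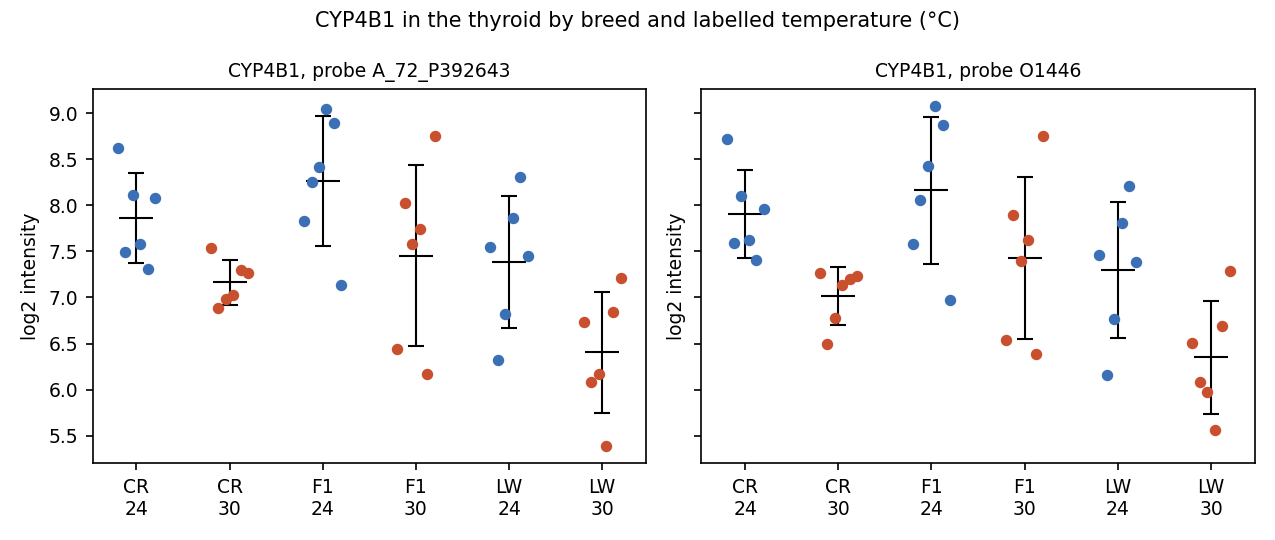
Log2 intensity of both CYP4B1 probes (vertical axis) in each pig, by breed and labelled temperature (horizontal axis), with the group mean and SD as bars (n = 6 each). Each breed is lower at 30 °C, and for O1446 the CR groups do not overlap, with 7.40 the lowest at 24 °C and 7.27 the highest at 30 °C.

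The markers of other cell types were read beside CYP4B1. Of 8 listed adipocyte genes 7 were tested, with ADIPOQ at a mean log2 intensity of 11.75 and FABP4 at 14.20. Their heat differences had a median of −0.33, with 0 called by limma and 4 at an unadjusted p under 0.05. At 24 and 30 °C the list mean was 10.78 and 10.42 in CR, 10.82 and 10.62 in F1, and 10.15 and 9.78 in LW, and the summed intensity ranged from 18496 to 49404 units at 24 °C and from 15771 to 39959 at 30 °C. Centred on the group means, CYP4B1 and the list correlated at r = 0.36 over 36 pigs, as a description of arrays that share slides. Proliferation markers fell (4 of 5 called lower at 30 °C, median −1.18), and CYP4B1 correlated with that list at r = 0.10. Their part in the CYP4B1 difference was not tested.

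The members next in order of their heat p were not called. ALDH6A1, which degrades methylmalonate semialdehyde, differed by 0.14 (limma adjusted p = 0.145), and all of its 3 probes were positive. Its median was 8.08 at 24 °C and 8.33 at 30 °C in CR, 8.19 and 8.20 in F1, and 8.13 and 8.32 in LW, with overlap in every breed. ALDH1A3, a retinal dehydrogenase, differed by −0.36 (limma adjusted p = 0.209), and its other probe by −0.29. Its median was 8.07 and 7.55 in CR, 8.26 and 7.73 in F1, and 8.16 and 8.07 in LW, and it was called only when CR 30 °C replicate 6 was left out. CYP26A1, which breaks down retinoic acid, differed by 0.62 with an SE of 0.34 (adjusted p = 0.591). CYP1A2 differed by −0.22, SULT1A1 by 0.26, ALDH5A1 by 0.12, CYP11B2 by 0.11, CYP4V2 by 0.09, CYP7B1 by 0.08, CYP2A7 by −0.09 and ALDH9A1 by −0.05, each with an adjusted p above the threshold.

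Within each breed alone 0 member probes were called by limma, in CR, F1 and LW. Over all probes 0.387%, 0.383% and 0% were called. At an unadjusted p under 0.05 there were 5, 6 and 4 member probes, or 4.67%, 5.61% and 3.74% of the members against 5.75%, 10.6% and 4.01% of all probes. The smallest adjusted p of a member was 0.582 in CR, 0.217 in F1 and 0.989 in LW. The test of whether the heat difference itself differed among breeds called 0 members and 0% of all probes, with 0 members at an unadjusted p under 0.05 against 4.67% of all probes. The smallest unadjusted interaction p of the genes by their brightest probe were 0.0582 for CYP1A2, 0.0818 for CYP7B1 and 0.115 for GSTZ1.

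The next comparison asked how the breeds differed over both temperatures. Between LW and CR, 16 of the 107 member probes under 11 gene names were called, or 15.0% against 12.9% of all probes. The names count CYP2A7 apart, though its probe has the sequence of a CYP2A19 probe. The called GST probes are the GSTA4 and GSTT1 pairs, each close to a single measurement. The probe counts, above all of the lower probes, therefore hold repeated measurements. Of the called probes 6 were higher in LW, 5.61% of the members against 7.17% of all probes, and 10 were lower, 9.35% against 5.73%. At an unadjusted p under 0.05 the members numbered 34, or 31.8% against 26.2% of all probes. The median difference was −0.03 over the members and 0.00 over all probes, and the median size was 0.12 and 0.08. By family, the CYP1 to CYP3 genes had 3 probes higher and 4 lower, CYP5 and above 1 lower, GST 4 lower and 0 higher, ALDH1 1 lower, and ALDH4 and above 3 higher, while CYP4, UGT2, SULT and ALDH2 had 0 called by limma (2, 0, 3 and 0 at an unadjusted p under 0.05).

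**Figure D2:**
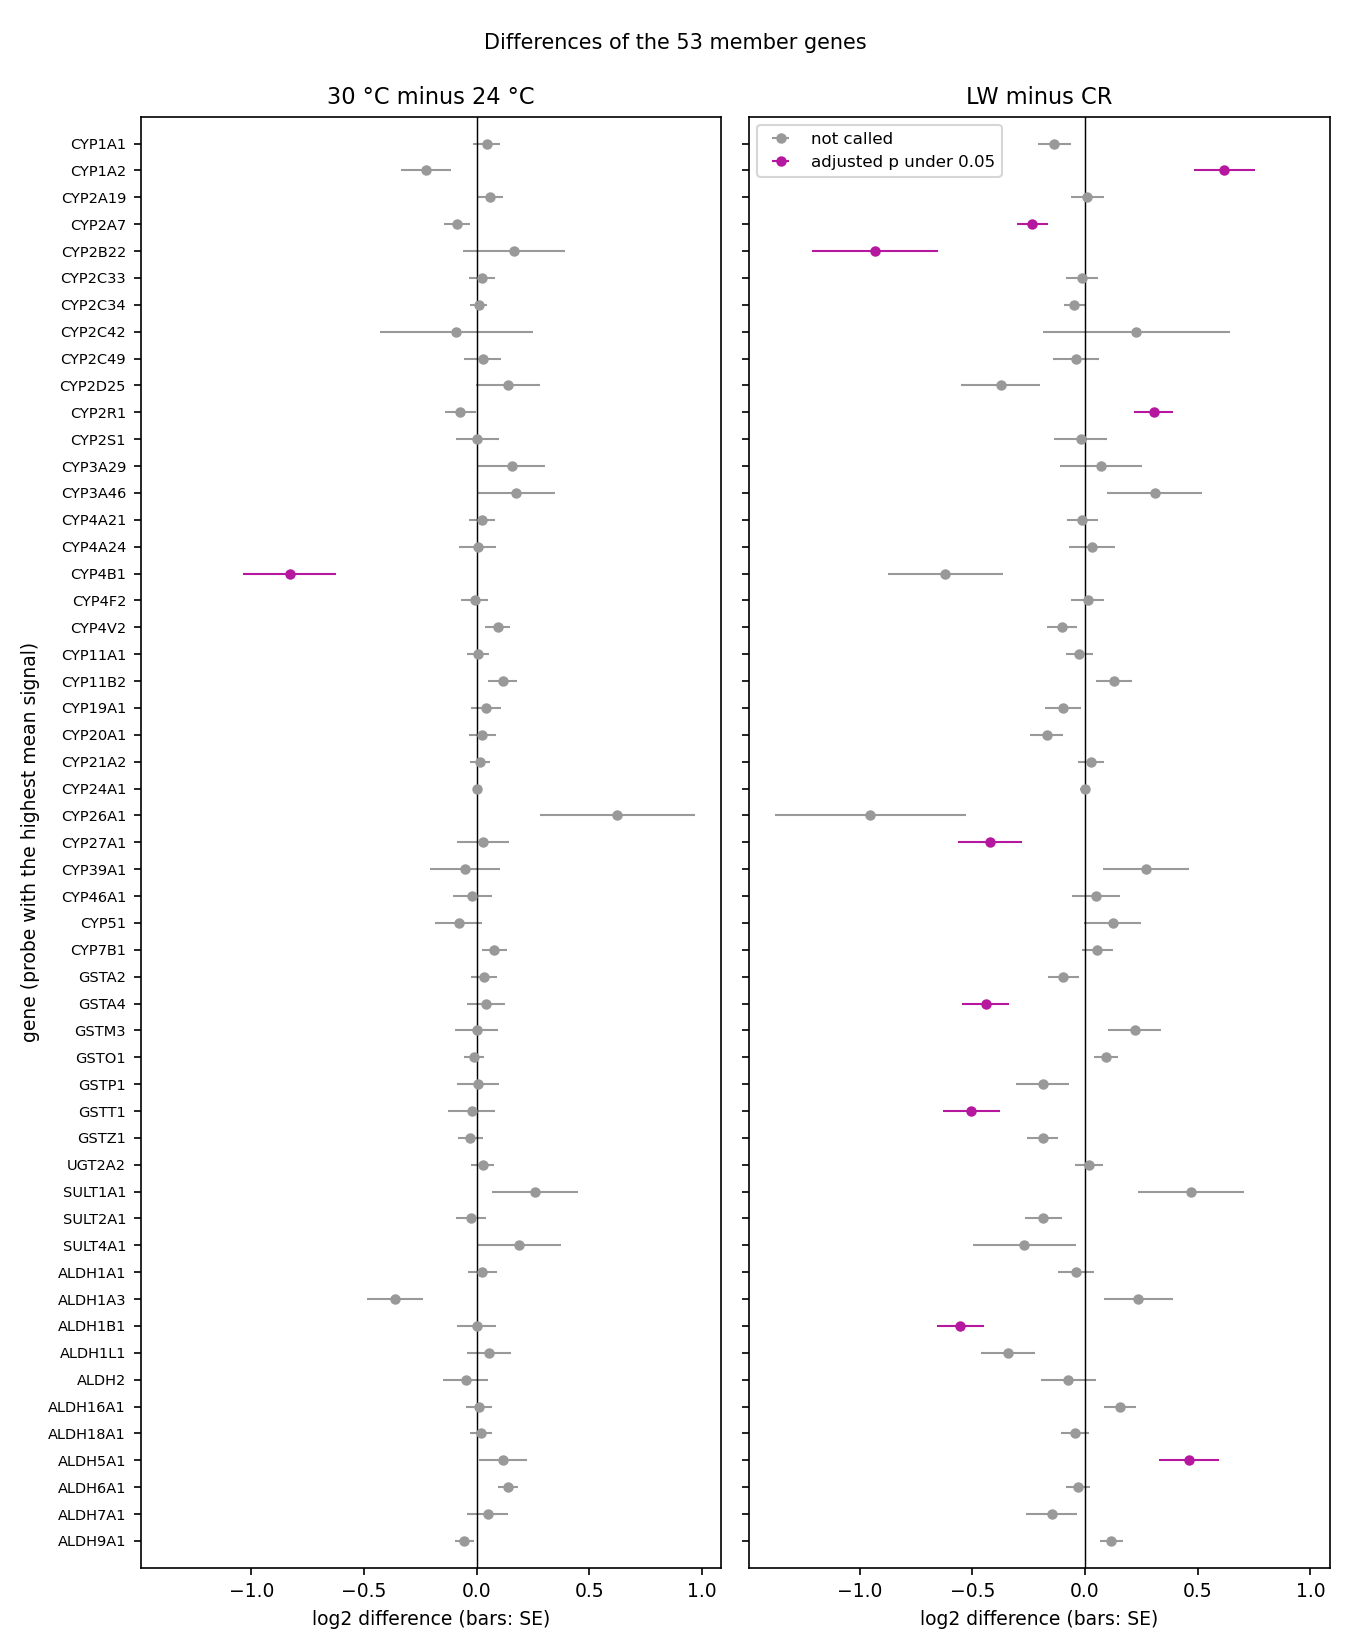
Log2 difference and SE of each of the 53 genes, read by its brightest probe, for 30 °C minus 24 °C (left) and LW minus CR (right), with called genes in magenta. CYP4B1 stands alone on the left at −0.83, and 9 genes are magenta on the right. CYP2A19 and CYP3A46, called by other probes of theirs, appear uncalled.

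Among the conjugating enzymes, the glutathione S-transferases GSTA4 and GSTT1 were lower in LW. GSTA4 conjugates lipid peroxidation products such as hydroxynonenal. Over both temperatures its probe A_72_P210752 had a lowest, median and highest log2 intensity of 8.77, 9.60 and 10.04 in the 12 CR pigs, 8.76, 9.0 and 9.17 in the 12 F1 pigs, and 8.91, 9.09 and 9.35 in the 12 LW pigs. The CR pigs reached higher and spread wider than either other breed, with overlap at their low end, and all 12 LW pigs lay below the CR mean. The LW minus CR difference was −0.44 (limma adjusted p = 0.0034), and the overlapping probe A_72_P605968 gave −0.42 (adjusted p = 0.00814). Within slides 1 to 4 A_72_P210752 gave −0.77, −0.36, −0.18 and −0.18.

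Between F1 and LW, GSTA4 differed by −0.15 and −0.19 and was not called. The F1 minus CR difference was −0.59 and −0.61 for the 2 probes (limma adjusted p = 0.000963 and 0.00118), negative on 4 of 4 slides. On slides 1 to 4 it was −1.05, −0.37, −0.25 and −0.47 for A_72_P210752. Against the mean of both parental breeds GSTA4 was lower in F1 by −0.37 and −0.40 (limma adjusted p = 0.0481 and 0.0383). These latter calls were lost without each of 26 pigs in turn for A_72_P210752 (adjusted p up to 0.0956) and of 18 for A_72_P605968 (up to 0.0847). With array position as a block neither probe was called (0.0996 and 0.0818), and A_72_P210752 was not with slide as a fixed block, the background-subtracted signal or all probes tested (up to 0.0819). Centred on groups, GSTA4 correlated with the follicular marker list at r = 0.54 over 36 pigs, its highest r among the marker lists. That list had 0 called genes between LW and CR by limma (0 at an unadjusted p under 0.05, median difference 0.10). Between F1 and CR it had 0 called (2 at an unadjusted p under 0.05, median difference −0.03). The part of cell types in the GSTA4 differences was not tested.

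GSTT1, the theta-class transferase of small halogenated compounds, had a lowest, median and highest level of 11.58, 11.99 and 12.11 in CR, 11.03, 11.86 and 12.12 in F1, and 10.46, 11.58 and 11.84 in LW, by probe O4053. CR pigs were tightly grouped and LW pigs trailed to lower values, all 12 of them below the CR mean. LW minus CR was −0.51 in both spots of the shared sequence (limma adjusted p = 0.00615 and 0.00663). The current name list gives GSTT1 as a synonym of LOC100153094. Of the other transferases, GSTZ1 had −0.19 (adjusted p = 0.0623), GSTP1 −0.19, GSTA2 −0.10, GSTM3 0.22 and GSTO1 0.09, none called.

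GSTZ1, which acts in tyrosine breakdown, was called between F1 and CR. Its probe A_72_P479037 had CR, F1 and LW medians of 12.56, 12.20 and 12.37 and highest values of 12.76, 12.48 and 12.69, and the ranges overlapped. F1 minus CR was −0.32 (limma adjusted p = 0.00624), and the other 2 probes gave −0.14 and −0.16 and were not called.

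The P450s with a breed call included drug-metabolising, vitamin D and sterol enzymes. CYP1A2, a hydrocarbon-inducible P450, was read at 7.69, 7.93 and 8.61 (lowest, median and highest) in CR, 7.64, 8.63 and 8.94 in F1 and 8.30, 8.70 and 9.08 in LW. LW pigs were all above the CR mean and overlapped CR at the CR high end. LW minus CR was 0.62 (SE 0.14, limma adjusted p = 0.00197), positive on all 4 slides. The F1 pigs at 30 °C ran from 7.64 to 8.80, across most of the ranges of both parental breeds. Its probe is linked in the files to a cDNA clone, and the other CYP1A2 probe was above background in no array of its best group.

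CYP2B22, a porcine drug-metabolising P450, had a lowest, median and highest level of 5.66, 6.82 and 9.26 in the CR pigs, 5.79, 6.14 and 6.78 in the F1 pigs and 5.66, 6.09 and 6.78 in the LW pigs. The breed difference rested on the upper part of the CR range, since 6 of the 12 CR pigs lay above every LW pig. The rest lay among the LW pigs or, for CR 24 °C replicate 4, just below them. LW minus CR was −0.93 (SE 0.28, limma adjusted p = 0.0219). Over the other settings it ran from −1.28 to −0.75, and the lowest values of each breed lay near background. Within slides it was −2.32, −1.02, 0.47 and −0.62, so that slide 3 had the opposite sign, and with array position as a block the adjusted p was 0.0524. The SD within groups, 0.74, was above that of 98.9% of the tested probes.

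CYP2R1, the vitamin D 25-hydroxylase, had medians of 6.13, 6.14 and 6.43 in CR, F1 and LW, and 11 of 12 LW pigs lay above the CR mean. LW minus CR was 0.30 (limma adjusted p = 0.0146), and from 0.23 to 0.47 over the other settings. CYP27A1, the sterol 27-hydroxylase, had medians of 9.40, 9.43 and 9.07 in CR, F1 and LW and a difference of −0.42 (limma adjusted p = 0.0451). Its other 2 probes gave −0.26 and −0.17 and were not called, slide 4 gave 0.07, and the call was lost without each of 13 pigs in turn (adjusted p up to 0.0919), with array position as a block (0.0794) and with all probes tested (0.0556). Centred on groups, CYP27A1 correlated over 36 pigs at r = 0.50 with the endothelial list, of which 4 of 8 genes were called higher in LW, and at r = 0.44 with the adipocyte list, of which 4 of 7 were called lower in LW (medians 0.23 and −0.61). Their part in the CYP27A1 difference was not tested. CYP3A46 was called by 1 of its 3 probes (A_72_P737020, 0.45, adjusted p = 0.0468), its brightest probe gave 0.31 (adjusted p = 0.375), and the call was lost without each of 19 pigs (up to 0.0913), with slide as a fixed block, with the background-subtracted signal and with all probes tested (up to 0.0578).

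CYP2A19, the porcine member of the CYP2A family, differed by probe. Probe A_72_P035981 had CR, F1 and LW medians of 6.67, 6.62 and 5.90, with all 12 LW pigs below the CR mean, and LW minus CR was −0.69 (limma adjusted p = 0.00477). That difference ran from −1.15 to −0.50 over the other settings. The brightest probe, A_72_P172956, had medians of 7.23, 7.23 and 7.31 and a difference of 0.01 (adjusted p = 0.952). The probe A_72_P441838 gave −0.20 (adjusted p = 0.0355), and its twin sequence under the name CYP2A7 gave −0.23 (adjusted p = 0.0226). The twins, of identical sequence, had means of 6.397 for A_72_P441838 and 5.985 for O9110, 0.41 apart, and correlated at r = 0.603 over 36 arrays. Whether breed differences in sequence lie beneath any of the CYP2A19 probes was not tested. A_72_P441838 lost its call without each of 9 pigs in turn (adjusted p up to 0.0685) and with array position as a block (0.0734). F1 pigs were higher than LW by 0.69 for A_72_P035981 and 0.26 for CYP2A7 (limma adjusted p = 0.0213 and 0.0387), and the latter was lost without each of 15 pigs (up to 0.0759). The CYP2A7 call was also lost with the background-subtracted signal, with normexp, and with slide as a fixed block or array position as a block (adjusted p up to 0.0852), with differences between 0.16 and 0.53 over the settings.

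Among aldehyde dehydrogenases, ALDH1B1 and ALDH5A1 carried the breed calls, in opposite directions. ALDH1B1, a mitochondrial acetaldehyde dehydrogenase, had the smallest adjusted p of the members. Its lowest, median and highest levels were 9.22, 9.60 and 10.21 in CR, 9.09, 9.37 and 9.86 in F1 and 8.91, 9.11 and 9.33 in LW. The medians stood in the order CR, F1, LW, and all 12 LW pigs lay below the CR mean, though the lowest CR pigs reached into the LW range. CR 24 °C replicates 1, 2 and 6 and CR 30 °C replicates 1, 2 and 6 lay between 9.77 and 10.21. The other CR pigs lay between 9.22 and 9.42. All of the former but CR 24 °C replicate 6 were also the highest CR pigs for GSTA4. The labels do not give their litters. CR 24 °C replicates 1 and 2 and CR 30 °C replicate 1 were all of the CR pigs on slide 1. The other high CR pigs for ALDH1B1 lay on slides 2, 4 and 5. LW minus CR was −0.55 (SE 0.10, limma adjusted p = 0.000373), and F1 minus either breed, −0.29 and 0.27, was not called. Within slides 1 to 4 LW minus CR was −1.06, −0.40, −0.18 and −0.35.

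ALDH5A1, the succinate semialdehyde dehydrogenase of GABA breakdown, was higher in LW in all of its 3 probes, which share no long stretch. Probe A_72_P708975 had a lowest, median and highest level of 10.18, 10.58 and 11.40 in CR, 10.58, 10.96 and 11.61 in F1 and 10.59, 11.13 and 11.60 in LW. The breeds overlapped widely, with 11 of 12 LW pigs above the CR mean. The differences were 0.46, 0.62 and 0.46 for A_72_P708975, A_72_P506660 and O9346 (limma adjusted p = 0.0156, 0.0013 and 0.0286), positive on 4 of 4 slides. O9346 lost its call without each of 4 pigs in turn (LW 30 °C replicates 1 and 6, CR 30 °C replicates 3 and 6, adjusted p up to 0.0544). F1 minus CR was called for A_72_P506660 alone, at 0.52 (limma adjusted p = 0.0205).

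**Figure D3:**
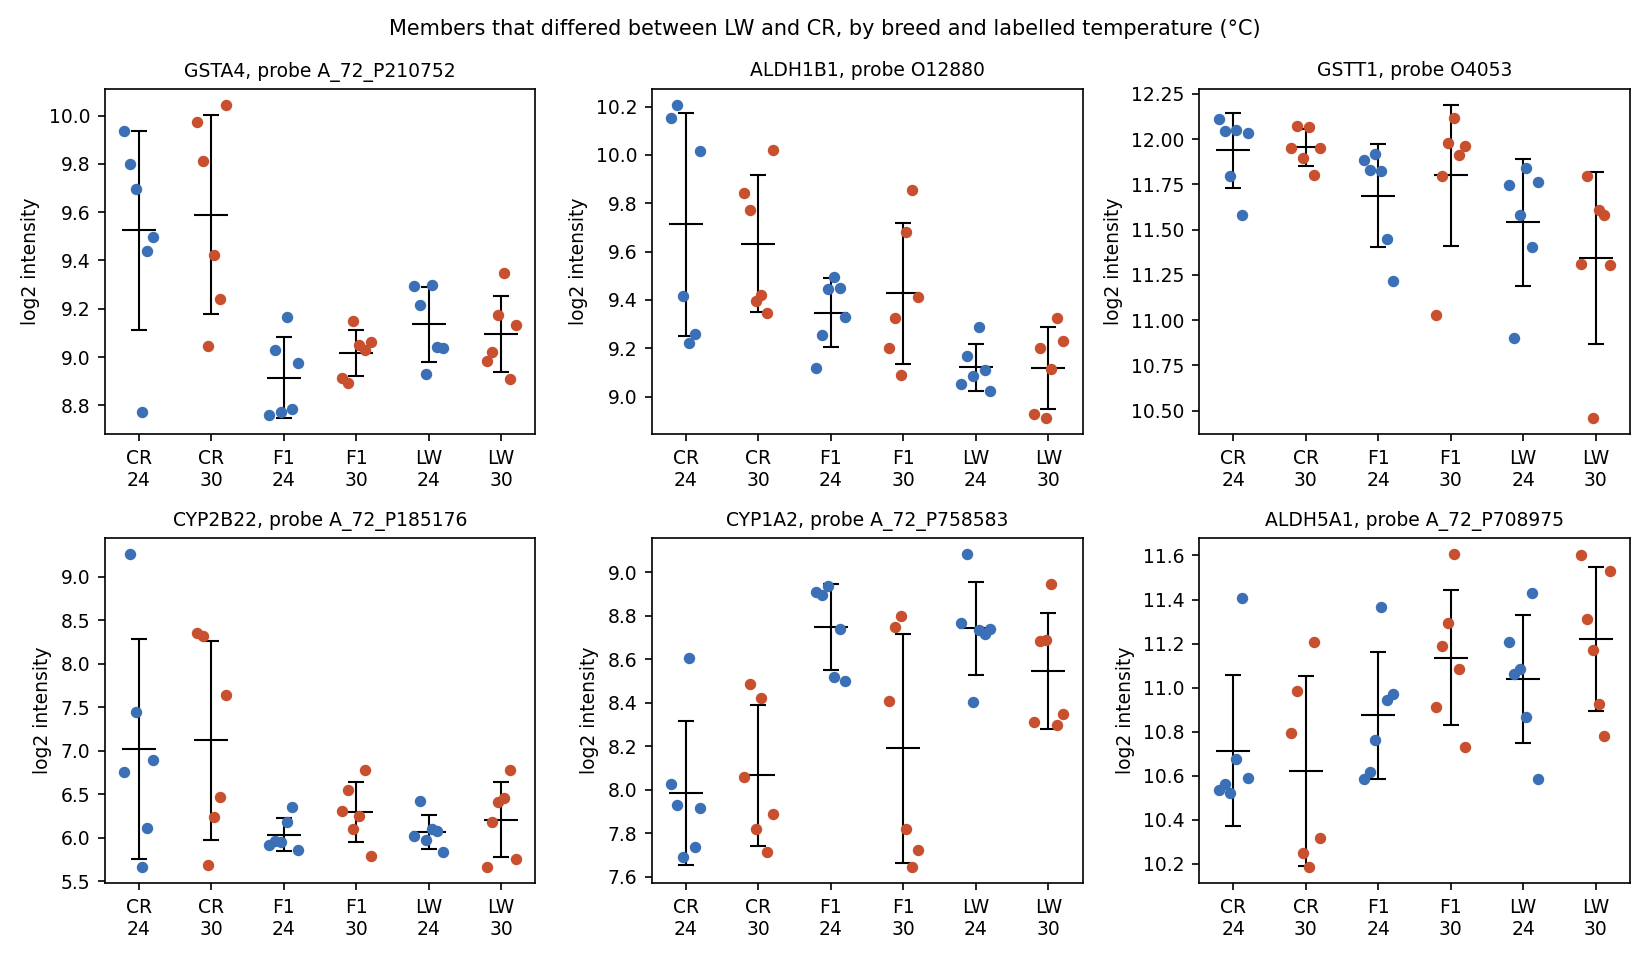
Log2 intensity (vertical axis) of 6 members called between LW and CR in each pig, by breed and labelled temperature, with group means and SD as bars (n = 6 each). CYP2B22 shows the wide CR spread, up to 9.26, and in each panel some CR pigs overlap the LW pigs.

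Between F1 and CR 5 member probes for 4 genes were called, or 4.67% against 3.38% of all probes, 1 higher and 4 lower. The 4 lower include both GSTA4 probes, which are close to a single measurement. At an unadjusted p under 0.05 there were 22, or 20.6% against 17.2% of all probes. Beside GSTA4, GSTZ1 and ALDH5A1 this was CYP2D25, a porcine P450 known for vitamin D 25-hydroxylation. Its brightest probe had CR, F1 and LW medians of 10.25, 9.86 and 9.84, and F1 minus CR was −0.67 (limma adjusted p = 0.0253). The other 2 probes gave −0.43 and −0.45 and were not called. The call was lost without F1 24 °C replicate 5 (adjusted p = 0.0525) and with array position as a block (0.057).

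Between F1 and LW 4 member probes under 3 gene names were called, all higher in F1, or 3.74% against 1.99% of all probes. At an unadjusted p under 0.05 there were 24, or 22.4% against 13.4%. The called probes were of CYP2A19, CYP2A7 and CYP4B1 (both probes). The CYP2A7 probe has the sequence of another CYP2A19 probe, and the CYP4B1 probes are close to a single measurement. CYP4B1 was higher in F1 by 0.96 and 0.97 (limma adjusted p = 0.0352 and 0.031), from medians of 7.93 in F1 and 6.83 in LW for A_72_P392643. Within slides it was 0.39, 1.63, 1.82 and −0.33, and the call was lost without each of 12 pigs for A_72_P392643 (adjusted p up to 0.0718) and of 9 for O1446 (up to 0.0633). Between LW and CR CYP4B1 differed by −0.62 and −0.64 and was not called (adjusted p = 0.104 and 0.0918). Adipocyte genes moved with it: 4 of 7 were called higher in F1 than LW (median 0.98) and 4 lower in LW than CR (median −0.61). Their part was not tested. Against the mean of both parental breeds 2 member probes were called, or 1.87% against 0.439% of all probes. Both were of GSTA4 and close to a single measurement, and 19 passed an unadjusted p under 0.05, or 17.8% against 10.4%. These breed contrasts share pigs and are not separate evidence.

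Several members varied widely between pigs of the same group. CYP2C42 and CYP26A1 had an SD within groups of 1.09, above 99.7% of tested probes, and SULT1A1 and SULT4A1 of 0.61. CYP26A1 ran from 6.30 to 10.57 within the F1 pigs at 24 °C, with a median of 8.57. CYP2C42, a porcine CYP2C, ran from 5.31 to 9.88 in the LW pigs at 30 °C, and its CR, F1 and LW medians were 7.12, 5.84 and 7.37. F1 minus LW was −1.31 for it and was not called (adjusted p = 0.097), and 3 of 6 F1 pigs at 30 °C were above background. CYP39A1, an oxysterol hydroxylase, and CYP3A29 also had probes with SDs between 0.35 and 0.68. At the other end ALDH9A1 and GSTO1 had an SD of 0.13.

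CYP27A1 apart, the steroid and sterol P450s named here had no called probe between temperatures or breeds. CYP51, the lanosterol demethylase of cholesterol synthesis, had a mean of 11.48 and ran from 10.82 to 12.23, with LW minus CR differences between 0.08 and 0.18 in its 4 probes, none called. CYP7B1, the oxysterol 7-hydroxylase, ran from 11.23 to 12.02 around a mean of 11.68. CYP39A1 ran from 9.78 to 11.36 around 10.59. CYP11A1, which makes pregnenolone from cholesterol, ran from 6.93 to 7.46 by its brightest probe, CYP21A2, the steroid 21-hydroxylase, from 6.14 to 6.66, and CYP19A1, aromatase, from 10.56 to 11.51. A separate CYP19A1 probe, A_72_P232317, ran from 5.85 to 6.33, so the CYP19A1 level also depends on the probe.

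The other conjugating and aldehyde enzymes were not called either. SULT1A1 had an LW minus CR difference of 0.47 (adjusted p = 0.196), and its other 2 probes gave 0.35 and 0.44. UGT2A2, the one glucuronosyltransferase measured, stayed between 6.27 and 6.97 in all 36 pigs. ALDH2, the main mitochondrial acetaldehyde dehydrogenase, was read by 11 probes, with heat differences between −0.10 and −0.01, all negative, and LW minus CR differences between −0.08 and 0.18. ALDH1L1, a folate enzyme, had an LW minus CR difference of −0.34 just outside the threshold (limma adjusted p = 0.0516). ALDH18A1, ALDH7A1 and ALDH16A1 differed by −0.05, −0.15 and 0.15.

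**Figure D4:**
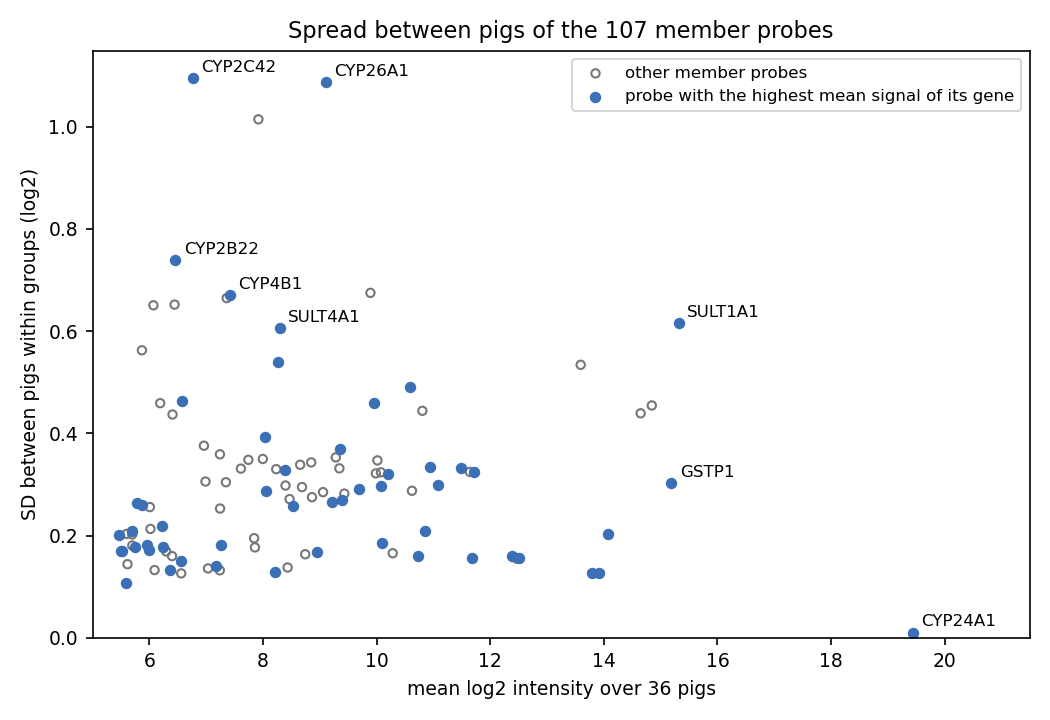
SD between pigs within groups (vertical axis, log2) against mean log2 intensity (horizontal axis) for the member probes, with the most variable members named. CYP2C42 and CYP26A1 lie highest at 1.09, and the CYP24A1 probe A_72_P763826 lies at the far right at 19.44, where the normalisation sets its SD near 0.

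The CYP24A1 probe A_72_P763826 was the brightest of all tested probes on 35 of the 36 arrays. Quantile normalisation gives the top-ranked probe of every array one value, here 19.44, so that its SD of 0.01 and the absence of a call follow from the normalisation and do not measure how it varied between pigs. CYP24A1 is the 24-hydroxylase that inactivates vitamin D. The files link this probe to 3 reference transcripts, and it shares with the ITGB3 probe the 30 bases in capitals above. The other CYP24A1 probes read means of 13.59, 10.81, 9.43 and 7.84, and the first of these holds matches of at least 20 bases to probes of 4 other names. The level of CYP24A1 is thus uncertain here, and none of its other probes was called between temperatures or between LW and CR.

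SULT4A1, a sulfotransferase best known from brain, correlated with C cell markers from pig to pig, a pair described because its r was the highest of those computed between members and marker lists. C cells are the calcitonin-making cells of the thyroid. Its lowest, median and highest levels were 6.89, 8.12 and 9.71 in CR, 8.33, 8.71 and 9.41 in F1 and 7.22, 8.04 and 8.48 in LW, and no breed or heat difference was called (F1 minus LW 0.75, adjusted p = 0.081). Over the 36 pigs, centred on the group means, it correlated at r = 0.926 with the mean of 5 tested C cell genes, and at 0.896 over 34 pigs without the 2 farthest. It was 0.957 in CR, 0.887 in F1 and 0.841 in LW, over 12 pigs each. By gene it was 0.904 for RET, 0.897 for SCG2, 0.891 for CALCB, 0.860 for CHGB and 0.347 for CHGA, and CALCA had no tested probe. The points share slides and a normalisation, and the list itself had 0 genes called by limma between F1 and LW (4 at an unadjusted p under 0.05, median 0.78) and between F1 and CR (3, median 0.66).

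**Figure D5:**
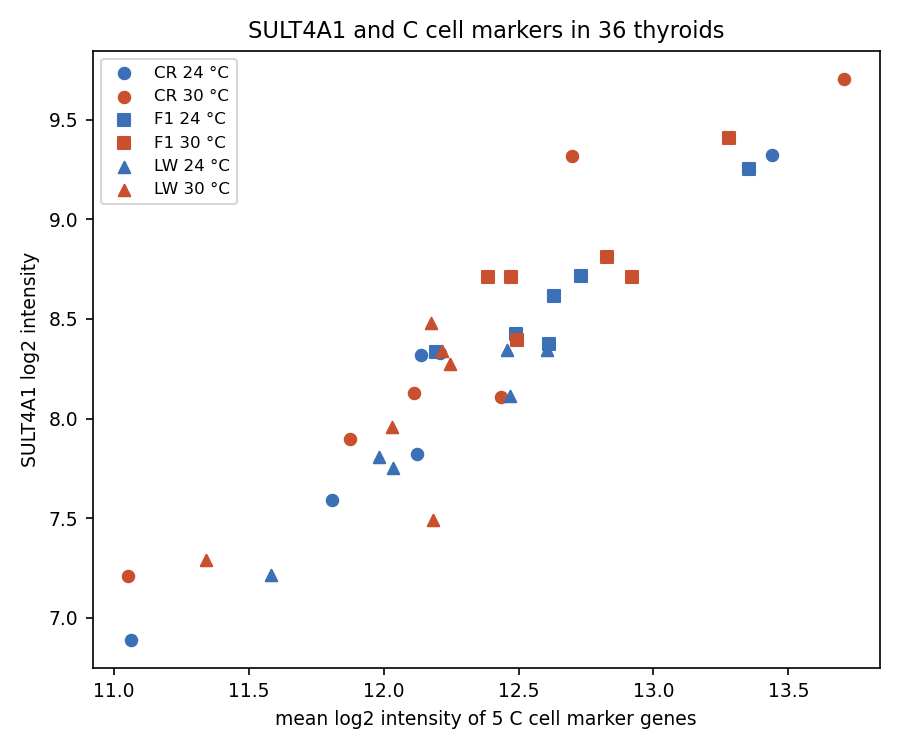
SULT4A1 log2 intensity (vertical axis) against the mean log2 intensity of 5 C cell marker genes (horizontal axis), 1 point per pig, coloured by temperature and shaped by breed. Higher C cell means go with higher SULT4A1 (uncentred r = 0.931, n = 36), and the CR pigs span the whole range from 6.89 to 9.71.

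The genes that regulate, supply or work beside these enzymes were read from a list of 80 names, of which 60 were tested. Each was read by its brightest tested probe alone, so shares of the list and of all probes are unlike measures. The list was also chosen with earlier results of these data known. Between temperatures 0 were called higher and 2 lower, or 3.33% of the list beside 1.18% of all probes, which were the aldo-keto reductases AKR1C1 (−0.51, limma adjusted p = 0.0229) and AKR1C4 (−0.55, adjusted p = 0.0449). Between LW and CR 6 were higher and 10 lower, or 26.7% of the list beside 12.9% of all probes. Lower in LW were the epoxide hydrolase EPHX2 (−0.96), the flavin monooxygenase FMO1 (−0.95), AKR1C4 (−1.27), AKR1C1 (−1.0), the carboxylesterases CES1 (−1.36) and CES3 (−1.47), the microsomal transferase MGST2 (−0.66) and the transcription factors PPARA, RXRA and MAFG (−0.29, −0.31 and −0.34). Higher were ADH4 (1.03), the sulfate donor enzyme PAPSS1 (0.23), the antioxidant regulator NFE2L2 (0.23), NAT1 (0.21), GSTK1 (0.19) and CBR1 (0.18). Between F1 and LW, EPHX2, FMO1, AKR1C1, AKR1C4 and CES1 were called higher in F1, or 8.33% of the list beside 1.99% of all probes. Between F1 and CR, GSTK1 and ADH4 were called higher in F1, or 3.33% beside 3.38%. Adipocyte genes also differed in these breed contrasts, with 4 of 7 called lower in LW than CR (median −0.61) and 4 of 7 higher in F1 than LW (median 0.98), and 4 of 8 endothelial genes were called higher in LW than CR (median 0.23). Their part in the differences of this list was not tested.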

How the data were processed

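Thyroid RNA of 36 pigs was hybridised to 1-colour Agilent arrays, 1 pig each. Per the file headers, the scanner files hold spot intensity (Feature Extraction 10.10.1.1, from the submitters' processing notes). The authors took the median intensity without background subtraction, quantile-normalised it and deposited log2 values for 46097 probes. Here these log2 values were remade from the deposited scanner files, leaving out 1319 control spots and setting 106 non-uniform spots to missing. They differed from the deposited log2 values by a median of 0.00556.

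Probes entered the tests when scored well above background in 5 or more pigs of any group of 6. All tests used limma 3.58.1 in R 4.3.3 (lmFit, eBayes, two-sided) over all 36 arrays, with breed and temperature terms or, within breeds and for the interaction, 6 group means. P-values were Benjamini-Hochberg adjusted over 46222 probes and a probe was called at an adjusted p under 0.05. The code was tested on simulated data. SE values come from the model and SD values from the pigs.

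A gene is shown by its brightest probe. Named are called members, the 12 smallest heat p, the 3 smallest interaction p and pathway genes of a written list, and others of a fixed list (SULT4A1, CYP39A1, GSTM3 and ALDH2 among them) by level. CYP2C42, CYP3A29, UGT2A2 and the marker correlation of SULT4A1 were chosen after their values were seen. Members and lists were chosen with earlier results of these data known. Alternatives covered scaling, background correction, detection, slide, array position and each pig left out. Arrays have no read depth, and their number and signal over background limit the precision. Of the 53 gene names, 42 match a current RefSeq symbol (Sscrofa11.1), 2 a synonym and 9 none. The files give no genome positions.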

Additional observations from a re-analysis of the deposited data

Results flagged for a closer look

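In 8 of 132 tests of a gene in a group of 6 pigs, over 22 member genes, 1 pig stood farther from its nearest neighbour than Dixon's 95% critical value for the range of 6 values allows, and chance alone gives about 1 in 20. CYP1A2, a hydrocarbon-inducible P450, was 8.61 in CR 24 °C replicate 4 against 7.69 to 8.03 in the other pigs of the group. ALDH5A1 was 11.4 in CR 24 °C replicate 5 against 10.52 to 10.67, toward the LW level. GSTT1 was 10.46 in LW 30 °C replicate 3 against 11.31 to 11.79, and 11.03 in F1 30 °C replicate 1 against 11.80 to 12.12. ALDH6A1 was 8.34 in F1 30 °C replicate 2 against 8.18 to 8.21. CYP11B2, near background, was 5.14 in CR 30 °C replicate 4 against 5.50 to 5.70. CYP4V2 was 11 in LW 30 °C replicate 5 against 10.54 to 10.67, and CYP7B1 was 11.95 in LW 24 °C replicate 2 against 11.65 to 11.76.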

How the results depend on the processing

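The heat count of 2 of 107 member probes was 1 with the background-subtracted signal, 1 with probes above background on all arrays and 0 without the breed term. It was 1 with overlapping probes averaged, an alternative chosen after seeing the data. With genes in place of probes it was 1 of 53 genes, a different unit from the probe count. The probe count was 1 to 3 with each pig left out, and 1 without each of the 10 pigs named for CYP4B1. The LW against CR count of 16 of 107 probes was 13 to 18 with each pig left out. With genes in place of probes it was 9 of 53 genes, again a different unit. The F1 against CR count of 5 was 8 with slide as a fixed or a random block, and 4 to 8 with each pig left out, moving by over 1.5 times without CR 24 °C replicate 5 and without F1 30 °C replicate 6. The F1 against LW count of 4 was 2 with probes above background on all arrays, and 1 to 5 with each pig left out, moving as far without each of 11 pigs (F1 24 °C replicates 3, 4 and 5, F1 30 °C replicates 2, 3 and 6, LW 24 °C replicates 2 and 3, LW 30 °C replicates 2, 3 and 4). The count of 2 for F1 against the mean was 1 with the background-subtracted signal, 1 with all probes tested, 1 with slide as a fixed block, 0 with array position as a block and 1 with overlapping probes averaged, and 0 to 2 with each pig left out, below 2 without 25 of the 36 pigs. The counts of 0 within CR, F1 and LW and for the interaction were 0 under every alternative run. The LW minus CR difference of CYP2A19 A_72_P172956 (0.01) changed sign with the background-subtracted signal (−0.0026), and it ran from −0.0152 to 0.0449 with each pig left out. Of 450 further values for named members 429 kept direction and call and 20 lost the call, and with 1 pig left out 1441 of 1584 did and 136 lost it. These totals include probes not called in the main fit, which had no call to lose. The causes were not tested. No paired analysis was possible because the labels carry no replicate numbers shared between groups. The number of arrays and the faint signal of probes near background limit what could be detected.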
